A study of Homo sapiens with 24 samples.

Results

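The comparison set 3 small RNA libraries of HEK293 cells overexpressing LMNB2 against 3 libraries of HEK293 cells overexpressing LMNA, 6 of the 24 libraries in the series. They were chosen by the overexpressed gene and the assay in the sample labels, and every annotated interval of the small RNA table entered, 175946 in all, of which 33893 had enough counts to be tested. HEK293 is an established human embryonic kidney line, and the labels give its genotype as wild type in every group. The other groups overexpressed LMNB1 or eGFP (GFP below), also with 3 libraries each, and they entered the estimate of spread and not the contrast. An ATAC-seq experiment on the same 4 conditions, with 3 libraries each, was set beside the result. The labels do not state the vector, the promoter, the time after delivery or whether replicates were separate cultures, so p-values measure the spread between these libraries, which may be technical.

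Lamins are intermediate filament proteins that line the inner nuclear membrane and anchor heterochromatin there. LMNA encodes lamins A and C, found mainly in differentiated cells, and LMNB2 encodes lamin B2, a farnesylated B-type lamin present in most cells. Small RNA profiles cover transfer RNA and 5S ribosomal RNA, made by RNA polymerase III, small nucleolar RNAs that guide modification of ribosomal RNA, and microRNAs, which pair with messenger RNAs through a short seed. The series' title concerns RNA polymerase III activity and the organisation of the genome in the nucleus, and the contrast asks which non-coding intervals differ between a B-type and an A-type lamin. Each interval of the table is an annotated RNA with 25 bases added on each side, and 155223 of the intervals are long non-coding RNA (lncRNA) loci that also hold the reads of whatever gene lies inside them.

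The LMNB2 libraries had more signal than the LMNA libraries over the LMNB2 gene itself, over zinc finger gene clusters of chromosome 19 and over NEAT1. They had less signal over a set of microRNAs, tRNAs and Y RNA copies, and snoRNAs were called in both directions. The quasi-likelihood test of edgeR, with false discovery control by the method of Benjamini and Hochberg, found 681 intervals that differed at an adjusted p under 0.05, which is 2.01% of those tested. Of these, 590 were higher in LMNB2 (1.74% of those tested), in 202 separate stretches of genome, and 91 were lower (0.268%), in 53 stretches. Mean counts over the 12 libraries went down to 4.2 among the higher calls. Intervals that passed the count filter only through the LMNB2 libraries were not set apart, so totals and shares of higher calls may include them. In every called interval the 3 LMNB2 libraries lay on one side of the 3 LMNA libraries, which held for 28.1% of all tested intervals. The median log2 fold change over all tested intervals was -0.01. In bulk RNA, fewer cells that express an RNA and less of it per cell cannot be told apart. Among the calls, 324 changed by at least 1 on the log2 scale, 282 upward and 42 downward.

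The number of calls depended on which libraries set the spread. A fit of the 6 libraries alone called 3001 of 28716 intervals (10.5%), 1484 higher and 1517 lower, and these held 669 of the 681. The biological coefficient of variation was 0.227 with 12 libraries and 0.173 with 6. Without GFP replicate 3 the count was 2049. It fell to 35 without LMNB2 replicate 2, 89 without LMNB2 replicate 3 and 191 without LMNB2 replicate 1. It was 119, 221 and 176 without LMNA replicates 1, 2 and 3, and 365, 357 and 351 without LMNB1 replicates 1, 2 and 3. Scaling to total counts called 313 intervals higher and 1 lower and moved the median of all intervals to 0.20. DESeq2 called 431 higher and 172 lower. With no count filter there were 612 higher and 620 lower calls, so the split between directions depended on these choices.

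Total counts were 159120880, 151919382 and 195074742 in the LMNA libraries and 142637218, 142686105 and 132507051 in the LMNB2 libraries, summed over overlapping intervals. The scaling factors of the trimmed mean of M-values (TMM) ran from 0.878 to 1.011 in LMNA and from 1.064 to 1.164 in LMNB2, so the groups did not overlap, while the GFP libraries spanned 0.631 to 1.310. The labels' batch number was the same for every small RNA library. All 9 microRNAs fixed as markers of HEK293 cells had at least 10 counts in each of the 6 libraries, with summed levels of 114 to 191 CPM (counts as a rate of the TMM-scaled library size, on the usual CPM scale) in LMNA and 80.4 to 91.9 in LMNB2. Of 22 microRNAs that mark liver, muscle, blood, pluripotent, neuronal, endocrine and vascular cells, 2 reached 10 counts, and their summed level was 1.41 to 2.00 CPM in LMNA and 1.29 to 1.32 in LMNB2.

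The overexpressed genes were checked first. The 8 tested intervals over LMNB2 were higher in the LMNB2 libraries. Of these, 3 intervals of MIR7108 were at 0 to 0.0526 CPM in LMNA and passed the count filter through the LMNB2 libraries, so they add no support and their fold changes are not given. NONHSAG024437.2, a lncRNA on the minus strand of chromosome 19 from 2431529 to 2456974, stood at 336, 378 and 365 CPM in LMNB2 and at 0.492, 0.414 and 0.497 CPM in LMNA, a log2 fold change of 9.55 ± 0.30, adjusted p 3.07e-12. The only tested interval over LMNA was lnc-MEX3A-1, on chromosome 1 from 156082856 to 156099892, at 0.0249, 0.0207 and 0.0702 CPM in LMNA and 0.0724, 0.0576 and 0.107 CPM in LMNB2, with an adjusted p of 0.360. The small RNA data check the LMNB2 label but not the LMNA label. In ATAC-seq the window on lnc-SEMA4A-1, which lies over LMNA, was at 4350, 5332 and 3743 CPM in the LMNA libraries against 7.34, 5.50 and 7.36 CPM in LMNB2, which checks the LMNA label in that assay. These intervals hold the coding genes too, and the sources used here do not state whether counting used strand.

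A lncRNA whose intervals overlap the third lamin gene, LMNB1, also differed. LMNB1-DT is transcribed divergently from the LMNB1 promoter on chromosome 5. Because of the overlap, reads of LMNB1 and of LMNB1-DT cannot be told apart in these counts. Its shorter interval, from 126777177 to 126778255, had 0.0684, 0.0621 and 0.0526 CPM in LMNA and 0.398, 0.352 and 0.398 CPM in LMNB2. The LMNB2 libraries were all higher, by a log2 fold change of 2.42 ± 0.23 (SE), adjusted p 2.01e-05. In the LMNB1 libraries the same interval stood at 17.8, 19.3 and 17.6 CPM. It was chosen after its values were seen, and it kept its call in all 21 alternative fits that tested it. The cause was not tested.

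Chromosome 19 held 271 of the 590 higher calls, in 92 separate stretches, 15.3% of its 1773 tested intervals, against 5 lower calls. Leaving out the 8 over LMNB2, 263 higher calls remained. The median log2 fold change on the chromosome was 0.47, and 82.2% of its tested intervals were positive. Chromosome 22 followed with 4.55% called higher (34 of 748), then chromosome 11 with 3.09% (41 of 1325). These calls lay in only 7 stretches on chromosome 22 and 5 on chromosome 11, where 30 were overlapping intervals of NEAT1. Their shares therefore rest on few loci. Chromosomes 13 and 14 had no higher call among 728 and 919 tested intervals. The plot of calls by chromosome shows this order, which was examined after the results were seen.

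**Figure D1:**
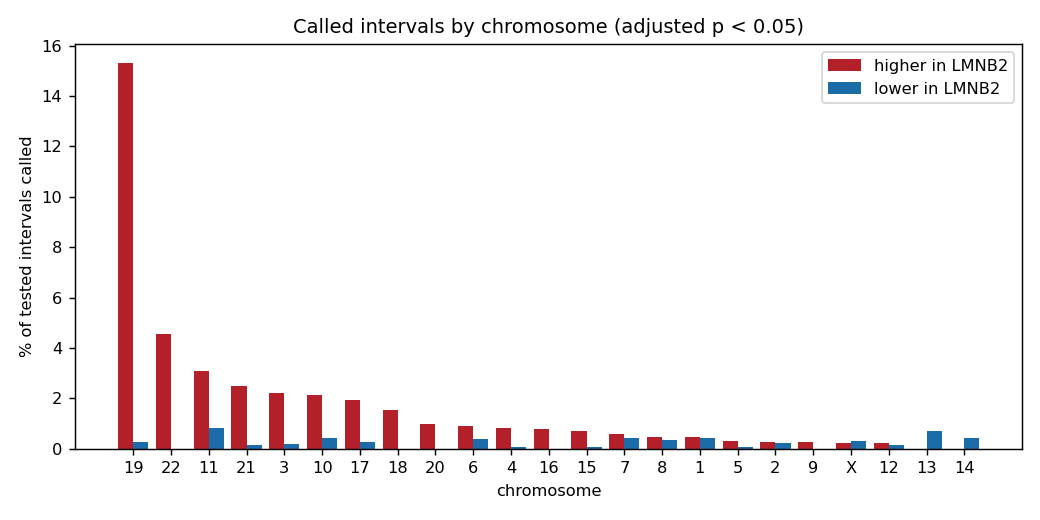
Percentage of tested small RNA intervals called higher (red) or lower (blue) in LMNB2 than in LMNA, by chromosome, ordered by the share called higher (edgeR's quasi-likelihood test, adjusted p under 0.05; 8 of the higher calls on chromosome 19 lie over LMNB2). Chromosome 19 reaches 15.3% and chromosome 22 reaches 4.55%, and the lower calls stay below 1% on every chromosome drawn. Overlapping intervals are each counted: the higher calls lie in 92 stretches on chromosome 19, 7 on chromosome 22 and 5 on chromosome 11.

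Chromosome 19 carries large clusters of KRAB zinc finger genes, which encode transcription factors that bind repeated DNA and recruit the silencing cofactor TRIM28. Of the 420 tested intervals on chromosome 19 that overlap a coding ZNF gene, 165 were called higher (39.3%) and none lower, against 1.74% and 0.268% of all tested, and 96.7% had a positive log2 fold change, with a median of 0.84. Their mean counts over the 12 libraries went down to 5.0, with a median of 21. Any that passed the count filter only through the LMNB2 libraries were not set apart and add no support to these shares. The 1353 intervals of chromosome 19 over no ZNF gene had 106 higher calls (7.83%), 5 lower calls and a median of 0.35. On other chromosomes, 14 of 395 intervals over ZNF genes were called higher (3.54%, median 0.14), and 305 of 31725 other intervals (0.961%, median -0.03). Relative to the LMNA mean, the median level of the 420 intervals was 0.82, 0.91 and 0.88 log2 units in the LMNB2 libraries, 0.06 to 0.10 in LMNB1 and 0.06 to 0.19 in GFP. The LMNB2 libraries therefore stood apart from the other 9 over these clusters. The intervals overlap each other, so they are not independent: with a single interval kept per overlapping group, 44 of 127 were called higher and the median was 0.80. Of the 420, 413 are lncRNA intervals, and the other 7 had a median of -0.36 when lncRNA intervals were left out. Without LMNB2 replicate 2 the number of higher calls was 17, with a median of 0.82, and in the 6-library fit it was 220 of 388.

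**Figure D2:**
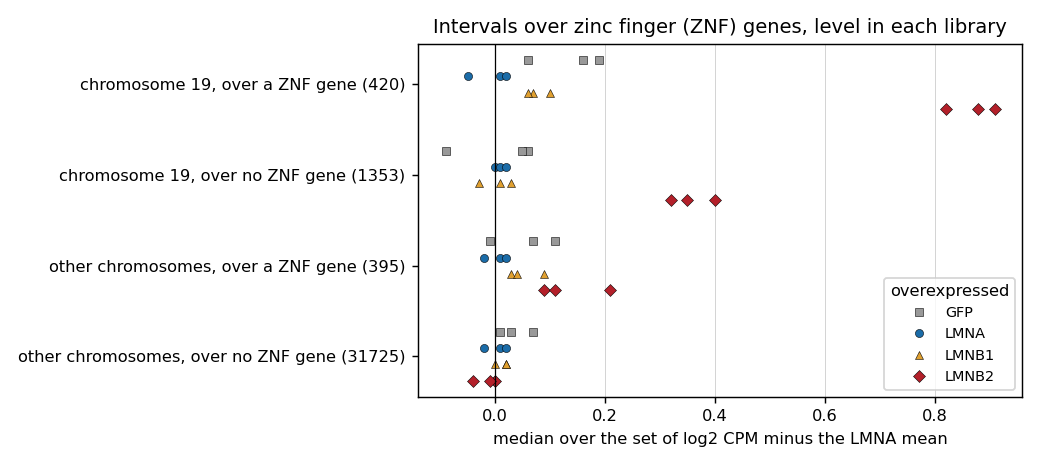
Median level of tested small RNA intervals in each of the 12 libraries, as log2 CPM minus the LMNA mean of each interval, for intervals over and not over coding ZNF genes on chromosome 19 and elsewhere (numbers of intervals in brackets). The 3 LMNB2 libraries lie at 0.82 to 0.91 for the 420 intervals over ZNF genes of chromosome 19 and at -0.04 to 0.00 for the 31725 intervals elsewhere over no ZNF gene.

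Counted by gene, tested intervals overlapped 160 of the 250 coding genes with a ZNF symbol that RefSeq places on chromosome 19. At least 1 interval was called higher over 88 of the 160, and the median over a gene's intervals was positive for 153 and negative for 7. On other chromosomes, 8 of 152 ZNF genes had a higher call. ZNF529 held 13 called of 22 intervals, ZNF567 had 12 of 12, ZNF433 had 9 of 10, and ZNF350 and ZNF540 had 8 each, of 9 and 11. Along the chromosome, the share called higher did not follow the share of intervals over ZNF genes in every stretch. It was highest between 35 and 40 Mb, where 92 of 265 intervals lie over ZNF genes: 82 of 265 tested intervals (30.9%) were called higher between 35 and 40 Mb of the chromosome, 51 of 220 (23.2%) between 55 and 60 Mb, 36 of 158 between 50 and 55 Mb and 27 of 128 between 10 and 15 Mb. Between 20 and 25 Mb, 54 of 90 intervals lie over ZNF genes and 13 (14.4%) were called higher, and between 40 and 45 Mb the numbers were 46 of 131 and 19 (14.5%). None of the 176 tested intervals between 25 and 30 Mb or the 76 between 30 and 35 Mb was called higher, and 0 and 5 of them lie over a ZNF gene.

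Among the most changed of these was LINC01534, a lncRNA on the minus strand of chromosome 19 from 36657466 to 36717648, whose interval overlaps ZNF461 and ZNF567. It had 0.436, 0.566 and 0.444 CPM in LMNA and 1.40, 1.56 and 1.31 CPM in LMNB2, and the 2 groups were far apart. Its log2 fold change was 1.54 ± 0.17, adjusted p 0.000162, and the call held in all 22 alternatives that tested it. ZNF649-AS1, antisense to ZNF649, had 0.0560, 0.0552 and 0.0877 CPM in LMNA and 0.229, 0.281 and 0.249 CPM in LMNB2, a log2 fold change of 1.74 ± 0.25, adjusted p 0.00294. The overlapping NONHSAG026386.2 over ZNF577 and ZNF649 rose by 1.60 ± 0.18, adjusted p 0.000222.

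Other intervals of the clusters had fold changes of the same order. lnc-ZNF567-4 rose by 1.58 ± 0.21, NONHSAG024874.2 over ZNF443 and ZNF799 by 1.53 ± 0.24, lnc-ZNF417-3 by 1.44 ± 0.19, lnc-ZNF429-2 by 1.40 ± 0.23, lnc-ZNF83-2 by 1.39 ± 0.25 and lnc-ZNF836-1 by 1.31 ± 0.17. Their LMNA levels lay between 0.0690 and 0.497 CPM and each LMNB2 library was above each LMNA library. Without LMNB2 replicate 2, NONHSAG024874.2, lnc-ZNF429-2 and lnc-ZNF83-2 no longer passed, with adjusted p-values of 0.0548, 0.0592 and 0.0632, and lnc-ZNF83-2 also lost its call without LMNA replicate 3 or LMNB2 replicate 3. The antisense RNAs ZNF433-AS1 and ZNF790-AS1 rose by 1.18 ± 0.20 and 1.05 ± 0.17, and both calls were lost without the same library, at an adjusted p of 0.0592. Reads from the coding ZNF gene and from the antisense RNA cannot be told apart in these counts.

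Outside chromosome 19, 317 intervals over no lamin gene were called higher, with a median log2 fold change of 0.89, as were 2 intervals of LMNB1-DT. LINC02177, an intergenic lncRNA on chromosome 16 from 9287150 to 9518463, had 0.118, 0.0897 and 0.105 CPM in LMNA and 0.308, 0.313 and 0.263 CPM in LMNB2, a log2 fold change of 1.39 ± 0.20, adjusted p 0.00317. NONHSAG023148.2 on chromosome 18 rose by 1.36 ± 0.25 and lost its call without LMNA replicate 1, LMNA replicate 2 or LMNB2 replicate 2. LHX1-DT, divergent to the kidney transcription factor gene LHX1, rose by 1.40 ± 0.25 and THUMPD3-AS1 by 0.81 ± 0.14. Both lost the call without LMNA replicate 1 and without LMNB2 replicate 2 or 3. Of the 222 divergent lncRNA intervals tested on all chromosomes, 6 were called higher (2.70%, against 1.74% of all tested intervals) and none lower, with a median of -0.05. All 6 were intervals of LHX1-DT or LMNB1-DT, several per gene, so they are not 6 independent results and say little about the class. Of the 3143 antisense lncRNA intervals on all chromosomes, 119 were called higher (3.79%) and 3 lower, with a median of -0.02. The 119 include intervals of chromosome 19 given above, such as ZNF433-AS1, ZNF649-AS1 and ZNF790-AS1.

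NEAT1, the scaffold RNA of paraspeckles, and MALAT1, an abundant RNA of nuclear speckles, lie next to each other on chromosome 11. All 30 tested intervals named NEAT1 were called higher, against 1.74% of all tested intervals, with log2 fold changes of 0.74 to 0.97 and a median of 0.83. None of the 39 named MALAT1 was called (lowest adjusted p 0.0776), with 36 positive and a median of 0.34. The difference between the 2 genes was not tested. A list of p53-linked genes that includes NEAT1 had 102 of 107 intervals positive, a median of 0.59 and 30 higher calls, and these were the NEAT1 intervals. The NEAT1 interval from 65418447 to 65450118 had 12, 12.5 and 11.7 CPM in LMNA and 19, 20.6 and 21.1 CPM in LMNB2, with no overlap between groups. Its log2 fold change was 0.74 ± 0.18, adjusted p 0.0468, in the 12-library fit. The call was lost in 12 of 21 alternatives, among them the replicate block and each fit without an LMNA, LMNB1 or LMNB2 library, where the highest adjusted p was 0.199 and the fold change stayed between 0.70 and 0.96. These intervals are nested and share reads, so 30 calls are not 30 independent results.

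Several classes of small structured RNA had mostly negative changes, as the plot of class medians shows, and others did not. Among 463 tested nuclear tRNA intervals, 415 had a negative log2 fold change, the median was -0.42 and 7 were called, all lower (1.51%). Over all tested intervals, 1.74% were called higher and 0.268% lower. Among 478 microRNA intervals, 411 were negative and the median was -0.58. Of these, 12 were called lower (2.51%) and 8 higher (1.67%), the latter near the share of all tested intervals. The C/D box snoRNAs, guides of ribose methylation, had 153 of 194 negative, a median of -0.32 and 4 lower calls (2.06%). Relative to the LMNA mean, their median level was -0.33 to -0.28 log2 units in LMNB2 and -0.33 to -0.29 in LMNB1. In GFP it was -0.46 to 0.22, so the LMNB2 libraries did not stand apart from those 2 groups. The H/ACA box snoRNAs, guides of pseudouridylation, had 87 of 131 negative, a median of -0.19, 4 higher calls (3.05%) and 1 lower call (0.763%). Their median level was -0.20 to -0.06 in LMNB2, -0.42 to -0.24 in LMNB1 and -0.65 to -0.28 in GFP. With total counts as the scale no tRNA and no microRNA interval was called lower. With lncRNA intervals left out before scaling, 3 tRNA and no microRNA intervals were, and the medians were -0.22 and -0.39. The 6-library fit called 158 tRNA and 156 microRNA intervals lower, and 1 and 18 higher. Library by library, the tRNA median was -0.35, -0.58 and -0.34 in LMNB2 and 0.03, -0.13 and 0.08 in LMNA, so the groups did not overlap. The GFP libraries spread from -0.69 to 0.22 for tRNA and from -0.60 to 0.94 for microRNA, a range wider than the distance between the 2 lamins.

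**Figure D3:**
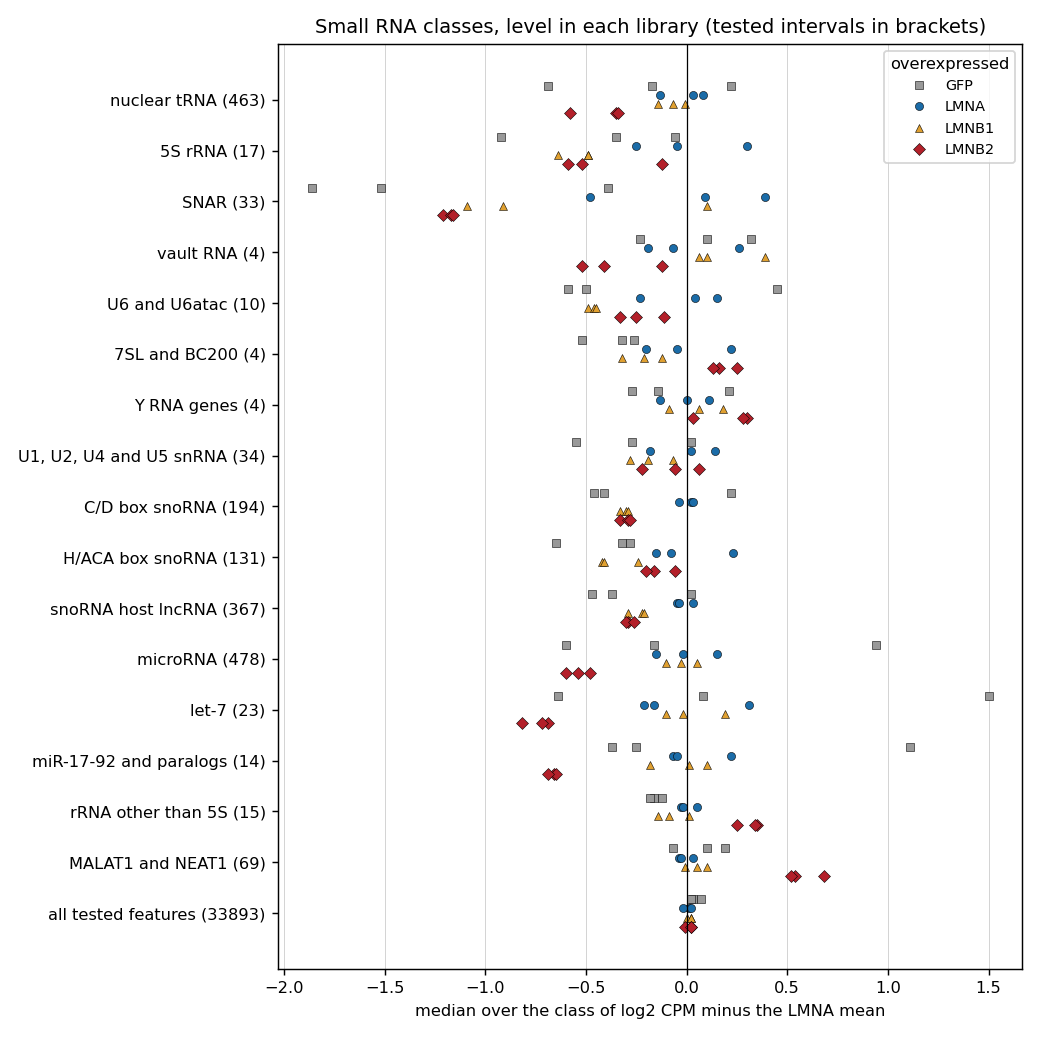
Level of each small RNA class in each of the 12 libraries: the median over the tested intervals of a class (number in brackets) of log2 CPM minus the LMNA mean of each interval. LMNB2 libraries lie below the LMNA libraries for microRNAs (-0.60 to -0.48) and SNAR (-1.21 to -1.16) and above them for MALAT1 and NEAT1 (0.52 to 0.68). GFP libraries are spread widely for let-7 and for SNAR (-1.86 to -0.39).

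These class medians moved with interval width and with scaling. Intervals of 66 to 77 bases had a median of -0.59 and 14.2% positive, those of 131 to 199 bases -0.31, those of 201 to 498 bases 0.16, and those above 50 kb -0.04. Under scaling to total counts the median of all intervals was 0.20, and the medians of tRNA (-0.19) and microRNA (-0.36) stayed negative, while those of H/ACA box snoRNA (0.02) and dispersed Y RNA copies (0.03) turned positive. The summed level of HEK293 marker microRNAs was lower in LMNB2 as well. The part of RNA enrichment or library size in these differences was not tested.

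Within the tRNA genes the isotypes differed in their medians. All 43 alanine tRNA intervals were negative with a median of -0.93, and none was called. Lysine had a median of -0.58 (26 of 29 negative), leucine -0.53 (31 of 31), glycine -0.43 (33 of 33) and glutamine -0.29 (23 of 23). Aspartate, histidine and valine were the isotypes with a positive median, at 0.21 (12 of 15 positive), 0.11 (8 of 10) and 0.03 (20 of 34). Copies of a tRNA family share reads, so the counts within an isotype are not independent. The difference between isotypes was not tested.

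The called tRNA with the largest change was tRNA-Lys-TTT-1-2 on chromosome 1 from 204506502 to 204506624. It had 54.4, 28.6 and 67.8 CPM in LMNA and 15.1, 19.2 and 15.6 CPM in LMNB2, a log2 fold change of -1.60 ± 0.31, adjusted p 0.0147. The LMNA libraries were the more variable group, and the 6-library fit did not call it. The call was lost in 7 of 22 alternatives. GFP libraries stood at 21.4, 16.6 and 34.6 CPM and LMNB1 libraries at 20.8, 23.4 and 22.2 CPM, nearer to LMNB2 than to the 2 highest LMNA libraries. The lncRNA interval lnc-MDM4-11, from 204506496 to 204506794, took 99.8% of its counts from that tRNA and is the same signal. A copy under the same name on chromosome 6, from 28951004 to 28951126, fell by 1.17 on the log2 scale (SE 0.27, adjusted p 0.0337), a call lost in 10 of 22 alternatives. tRNA-Thr-AGT-5-1 had 1.18, 1.48 and 1.25 CPM in LMNA and 0.706, 0.563 and 0.661 CPM in LMNB2, and fell by 1.01 (SE 0.16, adjusted p 0.00558), a call lost in 2 of 23 alternatives.

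The other called tRNAs fell by less. tRNA-Cys-GCA-12-1 fell by 0.84, tRNA-Leu-AAG-4-1 by 0.80, tRNA-Tyr-GTA-10-1 by 0.80 and tRNA-Arg-TCG-4-1 by 0.74 on the log2 scale, with adjusted p-values of 0.0258 to 0.0394. Each of them lost its call in 7 to 12 alternatives. For tRNA-Tyr-GTA-10-1 the mean level was 4.72 CPM in LMNA and 4.52 in LMNB1, against 2.70 in LMNB2 and 2.67 in GFP. tRNA-Ile-TAT-1-1 had the most negative estimate of its class, -4.01 ± 2.09, and did not pass (adjusted p 0.387). It rested on 1 library: LMNA stood at 0.940, 0.787 and 28.9 CPM, LMNB2 at 0.657, 0.621 and 0.590, and GFP replicate 3 at 55.4 CPM.

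The rest of the RNA polymerase III transcripts gave few calls. The SNAR RNAs, short RNAs bound by the protein NF90, had 33 of 33 tested intervals negative with a median of -1.24. Relative to the LMNA mean, their median level was -1.21 to -1.16 log2 units in LMNB2, -1.09 to 0.10 in LMNB1 and -1.86 to -0.39 in GFP. The LMNB2 libraries thus lay within the GFP range. Of the 33 intervals, SNAR-C4 passed, at 0.660, 0.649 and 0.731 CPM in LMNA and 0.326, 0.281 and 0.362 CPM in LMNB2 (log2 fold change -1.05 ± 0.25, adjusted p 0.0416), and the 6-library fit called 24. The SNAR-C4 call was lost in 9 of 23 alternatives, among them each fit without an LMNA or LMNB2 library. The 17 intervals of 5S ribosomal RNA had a median of -0.41 with no call. Relative to the LMNA mean, their median level was -0.59 to -0.12 in LMNB2, -0.64 to -0.49 in LMNB1 and -0.92 to -0.06 in GFP. RNA5S8 stood at 617, 483 and 420 CPM in LMNA and 457, 346 and 331 in LMNB2, ranges that overlap. The vault RNAs, parts of the vault particle, had a median of -0.27, and U6, the catalytic core of the spliceosome, -0.26, with no call in either. Of 1022 tested intervals that hold copies related to 7SL RNA, 8 were called higher (0.783%, below the 1.74% of all tested intervals) and none lower. The 46 mitochondrial, 42 HOX and 14 imprinted lncRNA intervals held no call.

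RN7SL1, the RNA of the signal recognition particle, had a log2 fold change of 0.12 ± 0.20, and RN7SK, which holds the kinase P-TEFb inactive, 0.11 ± 0.25. RMRP, which acts in ribosomal RNA processing, had -0.06 ± 0.24. RNY5, a Y RNA bound by the Ro60 protein, stood at 440, 466 and 496 CPM in LMNA and 588, 733 and 752 CPM in LMNB2. The groups did not overlap, and the log2 fold change of 0.56 ± 0.25 did not pass (adjusted p 0.277). By contrast, 6 of 274 dispersed Y RNA copies, annotated as RF00019, were called lower (2.19%, against 0.268% of all tested intervals) and none higher.

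The called Y RNA copies included an interval on chromosome 6 from 106454803 to 106454954, inside the coding gene CRYBG1. It had 16.6, 9.84 and 26.7 CPM in LMNA and 7.06, 5.40 and 8.43 CPM in LMNB2, a log2 fold change of -1.34 ± 0.32, adjusted p 0.0421. It carried nearly all counts of the called lncRNA interval lnc-ATG5-3. The 6-library fit did not call it, and it lost the call in 15 of 22 alternatives. Of the 57 called lncRNA intervals that were lower, 16 took at least 50% of their counts from a short interval inside them, such as this Y RNA copy, a tRNA, MIR423 or MIR92B, against 4 of the 567 that were higher.

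The microRNAs whose intervals were called lower are shown by their mature sequences, because their seeds set which messenger RNAs they pair with. Sequences are from RefSeq (GRCh38.p14), 5′ to 3′, with the seed (bases 2 to 8) in capitals. Of 322 tested intervals typed as microRNA, 247 matched a RefSeq mature arm by position, with 213 seeds among them. let-7b and miR-92a are set beside let-7e and miR-92b because they share a seed with them. MIR505, MIR486-1 with MIR486-2, MIR3687-1 and MIR5088 are named only.
hsa-let-7e-5p: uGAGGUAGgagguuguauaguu
hsa-let-7b-5p: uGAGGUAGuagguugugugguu
hsa-let-7e-3p: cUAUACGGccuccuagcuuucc
hsa-miR-92b-3p: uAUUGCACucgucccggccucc
hsa-miR-92a-3p: uAUUGCACuugucccggccugu
hsa-miR-423-3p: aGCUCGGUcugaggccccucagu
hsa-miR-193a-3p: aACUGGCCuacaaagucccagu
hsa-miR-320b: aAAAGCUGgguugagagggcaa
hsa-miR-2110: uUGGGGAAacggccgcugagug
hsa-miR-3187-3p: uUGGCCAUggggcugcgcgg

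MIRLET7E lies on chromosome 19 from 51692762 to 51692888, inside the SPACA6 locus, and let-7 microRNAs repress growth genes such as RAS and LIN28. Its precursor interval had 4.35, 6.05 and 4.07 CPM in LMNA and 2.23, 1.98 and 2.12 CPM in LMNB2. All LMNB2 libraries were lower, by a log2 fold change of -1.19 ± 0.25, adjusted p 0.0221. The call was lost in 7 of 22 alternatives, among them the fits without each LMNB2 library and without LMNA replicate 1 or 2. The second called interval, at -1.14, is centred on the 3p arm, and its 25-base flank reaches 2 bases of the 5p arm, so the arms cannot be told apart in these counts. Of 23 tested let-7 intervals, 22 were negative with a median of -0.71, and the 2 called were both of MIRLET7E. The 8 matched intervals that carry the seed shown for let-7b were also negative, with a median of -0.78, a range of -1.02 to -0.67 and no call. MIRLET7E is among the 5 lower calls of chromosome 19.

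MIR92B, on chromosome 1 from 155195152 to 155195297, had 3.32, 4.38 and 4.49 CPM in LMNA and 2.50, 1.91 and 1.88 CPM in LMNB2. Its log2 fold change was -0.95 ± 0.20, adjusted p 0.0212, a call lost in 6 of 22 alternatives. Its seed is that of miR-92a, a member of the miR-17-92 cluster, which promotes cell proliferation. MIR92A1 stood at 16.1, 39.5 and 25.4 CPM in LMNA and 19.4, 20.3 and 17.9 CPM in LMNB2, ranges that overlap, and did not pass (log2 fold change -0.49 ± 0.32, adjusted p 0.474). All 14 tested intervals of miR-17-92 and its paralogs were negative with a median of -0.68 and no call, and the host gene MIR17HG was at -0.59 ± 0.24 (adjusted p 0.228).

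MIR423, which shares its interval with MIR3184 on the opposite strand, was the most abundant called microRNA. It had 142, 258 and 169 CPM in LMNA and 97.5, 92.7 and 96.6 CPM in LMNB2. The LMNB2 libraries were tight and all below the LMNA libraries, by a log2 fold change of -0.99 ± 0.24, adjusted p 0.0461, a call lost in 12 of 22 alternatives. MIR193A had 0.728, 0.580 and 0.526 CPM in LMNA and 0.302, 0.307 and 0.306 CPM in LMNB2, a log2 fold change of -0.98 ± 0.19, adjusted p 0.0147, lost in 6 of 23. MIR505 fell by 1.29 (SE 0.29), MIR320B1 by 0.95 (SE 0.23), MIR3187 by 0.85 (SE 0.21), MIR2110 by 0.84 (SE 0.18) and MIR486-1 with MIR486-2 by 0.75 (SE 0.16), with adjusted p-values of 0.0235 to 0.0481. These calls were lost in 14 of 23 alternatives for MIR505, 13 of 23 for MIR320B1, 14 of 22 for MIR3187, 8 of 23 for MIR2110 and 8 of 22 for MIR486-1 with MIR486-2. The 4 matched intervals with the seed of miR-320b were all negative, with a median of -0.84 and 1 call.

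The abundant microRNAs MIR10A and MIR615, which lie in the HOXB and HOXC clusters, did not pass. MIR10A stood at 65.8, 97.1 and 54.8 CPM in LMNA and 44.1, 43.9 and 37.3 in LMNB2 (adjusted p 0.50), and reached 218 CPM in GFP replicate 3. MIR615 stood at 30.5, 89.1 and 102 CPM in LMNA and 55.5, 49.7 and 54.5 CPM in LMNB2, ranges that overlap. The 8 microRNA intervals called higher were 3 over LMNB2 (MIR7108), 2 of MIR5088 and 3 of MIR3687-1 and its copies. The MIR5088 intervals were at 0.0187 to 0.0483 CPM in LMNA and, like MIR7108, passed the count filter through the LMNB2 libraries. They therefore add no support, and their calls were lost in 13 of 21 and 11 of 20 alternatives. MIR3687-1 lies in the 45S ribosomal RNA repeats on chromosome 21, and its interval from 8208853 to 8208926 had 21.2, 20 and 28.4 CPM in LMNA and 51.9, 42.5 and 48.2 CPM in LMNB2 (log2 fold change 1.03 ± 0.25, adjusted p 0.0405). That call was lost in 10 of 22 alternatives, the replicate block and each fit without an LMNA, LMNB1 or LMNB2 library. The ribosomal RNA intervals other than 5S were all positive, 15 of 15, with a median of 0.30 and no call, and the 6-library fit called 8.

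**Figure D4:**
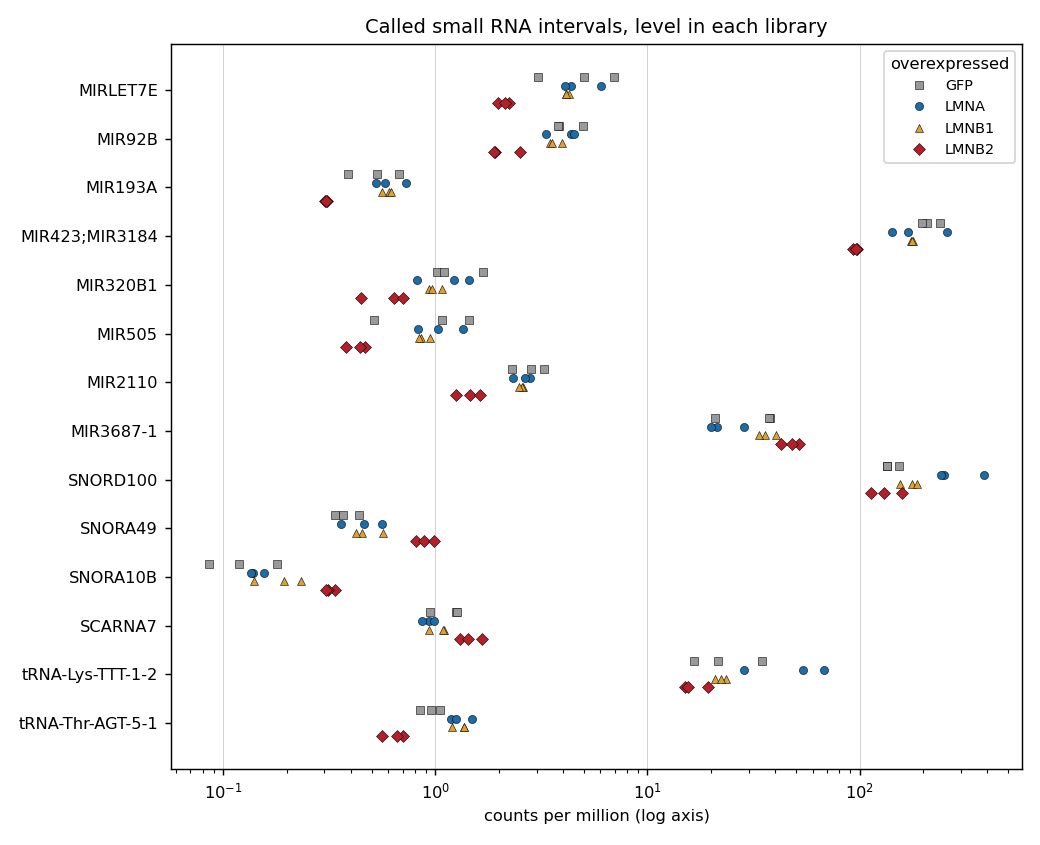
Level in each of the 12 libraries, in CPM on a log axis, of 14 small RNA intervals called between LMNB2 and LMNA (drawn per name, the interval with the highest mean count). For MIR423 the LMNB2 libraries lie at 92.7 to 97.5 CPM and the LMNA libraries at 142 to 258 CPM, with the LMNB1 libraries at 175 to 179 CPM.

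The called snoRNAs were split between the 2 boxes. SNORD100, hosted by the ribosomal protein gene RPS12, had 385, 249 and 242 CPM in LMNA and 159, 130 and 113 CPM in LMNB2, a log2 fold change of -1.12 ± 0.25, adjusted p 0.0275. Its levels in GFP (135, 135 and 154 CPM) and LMNB1 (177, 186 and 155 CPM) were also below those in LMNA. SNORD88B fell by 0.89, SNORD169 by 0.85 and SNORD136 by 0.84 on the log2 scale, with adjusted p-values of 0.0243 to 0.0339. The calls of SNORD100, SNORD88B, SNORD169 and SNORD136 were lost in 9 of 23, 7 of 22, 11 of 23 and 11 of 23 alternatives, among them every fit without an LMNB2 library. None of the 194 C/D box intervals was called higher. The snoRNAs U3, U8 and U13, which act in ribosomal RNA processing, had 14 of 21 tested intervals positive, a median of 0.45 and no call.

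Of the H/ACA box snoRNAs, SNORA54 fell by 0.89 (SE 0.18, adjusted p 0.0187), while SNORA10B rose by 1.09 ± 0.23, SNORA49 by 0.93 ± 0.18, SNORA16A by 0.72 ± 0.18 and SNORA6 by 0.67 ± 0.17. The mean level of SNORA54 was 0.723 CPM in LMNA, 0.383 in LMNB2, 0.441 in GFP and 0.426 in LMNB1, so LMNA was the group that stood apart. SNORA49, inside EP400, had 0.560, 0.359 and 0.462 CPM in LMNA and 0.808, 0.883 and 0.988 CPM in LMNB2, with no overlap. SCARNA7, a guide RNA of Cajal bodies, rose by 0.65 ± 0.16. The calls of SNORA6, SNORA16A and SCARNA7 were lost in 13, 13 and 15 alternatives, DESeq2 size factors among them. Those of SNORA54, SNORA10B and SNORA49 were lost in 7 of 22, 7 of 22 and 5 of 23. The lncRNA hosts of snoRNAs had 289 of 367 intervals negative with a median of -0.30 and no call. Relative to the LMNA mean, their median level was -0.30 to -0.26 in LMNB2, -0.29 to -0.21 in LMNB1 and -0.47 to 0.02 in GFP. GAS5, the most abundant of these hosts, stood at 7911, 9613 and 9561 CPM in LMNA and 6463, 7287 and 7312 CPM in LMNB2, with an adjusted p of 0.606 and a GFP range of 5678 to 16648 CPM.

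Some lower calls lay in lncRNAs that hold no such short RNA. lnc-ELP4-8, whose interval on chromosome 11 spans the developmental transcription factor gene PAX6, had 16.4, 12.9 and 17.9 CPM in LMNA and 7.06, 6.33 and 6.49 CPM in LMNB2. The groups were separate, and the log2 fold change was -1.25 ± 0.29, adjusted p 0.0339, a call lost in 10 of 22 alternatives. AL512380.2, over the transcription factor gene SOX4, fell by 1.18 (SE 0.24, adjusted p 0.0196), and lnc-CLDN10-8 on chromosome 13 by 1.61 (SE 0.35, adjusted p 0.0301). These 2 calls were lost in 6 of 21 and 9 of 22 alternatives, including each fit without an LMNB2 library.

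Chromatin accessibility over the same intervals showed few differences. ATAC-seq uses a transposase that cuts open DNA, and 163786 windows, each wider on both sides than its small RNA interval, could be tested between LMNB2 and LMNA. By edgeR's quasi-likelihood test 5 windows passed (0.00305%), and 11739 had an unadjusted p under 0.05 (7.2%). Of the 5, lnc-GADD45B-1 and lnc-TIMM13-1 lie over LMNB2 and were higher by 8.87 and 9.03, and lnc-SEMA4A-1 lies over LMNA. The other 2 were overlapping windows of lnc-SLC12A7-1 on chromosome 5, at 2.59, 2.37 and 2.01 CPM in LMNA and 0.738, 0.993 and 1.29 CPM in LMNB2 for the shorter, a log2 fold change of -1.20 ± 0.14, adjusted p 0.000189. The LMNB1 libraries were also low there, at 1.13, 1.19 and 1.09 CPM. A fit of the 6 ATAC libraries alone called 981 windows.

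Apart from those over LMNB2, windows on the called small RNA intervals had median ATAC changes near 0. The 588 windows of intervals called higher had a median ATAC log2 fold change of -0.028, with 34.5% positive and 3.2% at an unadjusted p under 0.05. Over the 33312 intervals tested in both assays these values were -0.013, 45.0% and 8.6%. The 588 include the 8 windows over LMNB2, with ATAC changes of 8.87 to 11.95. With lamin genes left out, the 263 windows of higher calls on chromosome 19 had a median of -0.014, with 1.1% at an unadjusted p under 0.05. The 315 on other chromosomes had a median of -0.039, with 2.5%. The 419 windows over chromosome 19 ZNF genes had a median of -0.017, with 1.2% at an unadjusted p under 0.05 and no call. The 85 windows of intervals called lower had a median of -0.039, with 35.3% positive. These medians are descriptions, since the intervals overlap and the 2 assays come from separate libraries.

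**Figure D5:**
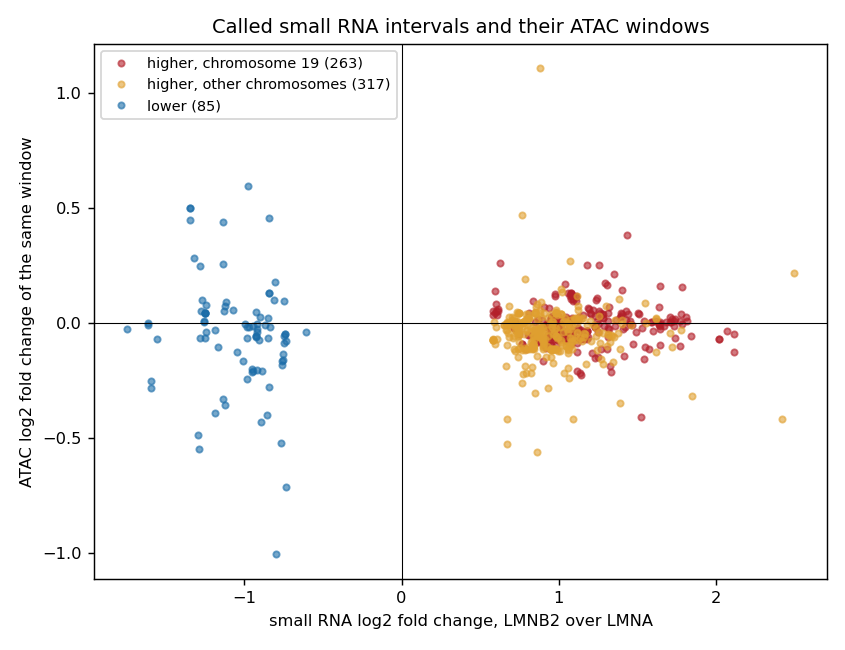
ATAC log2 fold change (LMNB2 over LMNA) of the window on each called small RNA interval, against its small RNA log2 fold change; 8 intervals over LMNB2 with small RNA changes beyond 4 are outside the axes. The points scatter around an ATAC change of 0 on both sides. The median for the intervals called higher is -0.028, with the 8 over LMNB2 included.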

How the data were processed

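The authors deposited raw read counts for both assays, in a table per assay, whole numbers whose totals differ between libraries. Small RNA counts come from total RNA enriched for small RNAs, per the labels' protocols, and the build is GRCh38, per the submitters' processing notes. The aligner, the counter, the use of strand and the treatment of reads that map to several places are not given in the sources used here, and overlapping intervals and near-identical copies share reads. Positions are those of the tables, counted from 1.

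The 12 libraries of an assay entered 1 model in edgeR 4.0.16 under R 4.3.3, with group as the factor and LMNB2 minus LMNA as the contrast. Low intervals were removed by filterByExpr, scaling used TMM, and the quasi-likelihood fit was robust with a prior count of 2. Benjamini-Hochberg adjustment covered every tested interval, and calls have an adjusted p under 0.05. CPM use TMM-scaled library sizes, so 1 count is 0.00585 to 0.00710 CPM in the 6 libraries. SE is the absolute log2 fold change over the square root of F. DESeq2 1.42.0, other scalings and filters, a replicate block, fits of fewer libraries and stricter thresholds were alternatives.

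Members, lists and tests were chosen with earlier results of these data known. Named were tested intervals over LMNA or LMNB2, and per direction the 10 most changed calls outside lamin genes whose groups did not overlap and whose mean log2 CPM reached the median, 1 per overlapping group. Also named were up to 4 called members of each class list, or else its 2 most abundant, the 6 most abundant microRNA intervals, and up to 4 calls each of microRNA, snoRNA, snRNA and tRNA. The ZNF and chromosome sets, LMNB1-DT, the further Y RNA copies and the further microRNA and snoRNA calls were chosen after their values were seen. ZNF overlaps and microRNA sequences are from RefSeq (GRCh38.p14).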

Additional observations from a re-analysis of the deposited data

How the results depend on the processing

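No setting reversed a direction among the 80 named intervals that were called; the uncalled ones were not followed across settings. The number of small RNA intervals that differed was 681, and ranged from 35 without LMNB2 replicate 2 to 2049 without GFP replicate 3 when single libraries were left out. It was 94 at an adjusted p under 0.01 (93 higher, 1 lower), 324 with a log2 change of at least 1, 314 with total counts as the scale (313 and 1), 1232 with no count filter (612 and 620), 3001 with the 6 libraries alone (1484 and 1517), 89 without lncRNA intervals (82 and 7) and 178 with a single interval per overlapping group (140 and 38). Chosen after seeing the data, leaving out GFP replicates 1 and 3 gave 3412 (1458 and 1954), and the 9 lamin libraries gave 3364 (1737 and 1627). DESeq2 called 603 (431 and 172). The ATAC count of 5 became 88 with total counts (5 higher, 83 lower), 112 with DESeq2 (40 and 72) and 981 with 6 libraries (261 and 720), and ran from 5 to 19 with single libraries left out.

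With total counts the median of all intervals was 0.20, and the class medians moved with it: tRNA -0.19, Y RNA genes 0.41, dispersed Y RNA copies 0.03, U6 -0.04, U1, U2, U4 and U5 0.14, C/D box -0.10, H/ACA box 0.02, snoRNA hosts -0.07, miR-17-92 -0.45, microRNA -0.36, mitochondrial 0.11, ribosomal RNA other than 5S 0.53, MALAT1 and NEAT1 0.80, p53-linked genes 0.81 and chromosome 19 ZNF genes 1.05. Without lncRNA intervals these were tRNA -0.22, Y RNA genes 0.40, dispersed Y RNA copies -0.00, U6 -0.06, U1, U2, U4 and U5 0.12, C/D box -0.12, snoRNA hosts -0.16, miR-17-92 -0.48, microRNA -0.39, mitochondrial -0.02, ribosomal RNA 0.51, p53-linked genes -0.57 and chromosome 19 ZNF genes -0.36. With a single interval per group they were U1, U2, U4 and U5 0.19, C/D box -0.28, snoRNA hosts -0.22, let-7 -1.03 and p53-linked genes -0.01. No count filter gave C/D box -0.23 and microRNA -0.18, and DESeq2 gave chromosome 19 ZNF genes 0.94. The median of all intervals was -0.03 without LMNB2 replicate 1. The causes of these shifts were not tested. Where intervals were left out, the medians also rest on fewer intervals.

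Replicate numbers are shared between groups, and same-numbered LMNA and LMNB2 libraries deviated from their group means with correlations of 0.05, 0.04 and 0.02, so the numbers were not taken as pairs. With a replicate block, 566 small RNA intervals (471 higher, 95 lower) and 21 ATAC windows differed.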
